A study of Mus musculus with 20 samples.

Results

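Interferon response genes are switched on when a cell senses viral nucleic acid or interferon, and the reprogramming cells described here had been made by infection with retroviruses. Chromatin accessibility was followed at 35 such genes out of 21912 genes counted (protein-coding genes and Mx2, which the annotation lists as a polymorphic pseudogene). The 35 genes were a given list of sensors, transcription factors, the ISG15 system, antiviral effectors and antigen presentation genes. A gene was counted as having a promoter peak when an ATAC-seq peak overlapped the window within 2 kb of the start site of any of its annotated transcripts, and peaks within 10 kb of the gene span were counted apart. In uninfected fibroblasts 32 of the 35 had a promoter peak, and at the end of infection 21 and 25 had one, while the share of all genes with a promoter peak went from 70.3% to 61.1% and 65.5%.

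In this pathway, sensors of viral RNA or DNA activate IRF transcription factors, which switch on interferon genes. Secreted interferon then acts through its receptors and JAK kinases to form a complex that holds STAT2 and IRF9 and binds the interferon-stimulated response element (ISRE) in the promoters of antiviral genes. Interferon gamma acts mainly through GAS elements, and IRF1 links it to the antigen presentation genes. Pluripotent cells are known for a weak interferon response.

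The libraries were made from mouse embryonic fibroblasts (MEFs), from embryonic stem cells (ESCs) and from MEFs infected with Nanog+Oct4 or NanogN70+Oct4, where NanogN70 is NANOG with a BRG1-interacting domain of SS18 at its N-terminus. All of these cells were described in the study as carrying the Oct4-GFP reporter OG2, the MEFs came from embryos of an OG2 father and a 129 mother, and the ESCs were grown without feeders in N2B27+2iL medium. The factors were on pMXs retroviruses made in Plat-E cells, day 0 was the end of a second round of infection, and the cells then grew in iCD3 medium, with N2B27+2iL as the later medium. MEFs gave 1 library and ESCs gave 3, and each path was sampled once on 8 days (day 0, day 1, then days 3, 5, 7, 8, 10 and 12), while no library of MEFs infected with an empty vector was used here. Uninfected MEFs are therefore the only comparison for infection, which cannot be told apart from the action of the factors or from the time in culture. The ESC libraries carry a fibroblast label as their source and were taken as ESCs from their titles. The deposited pileup (the number of tags stacked at a peak summit) was scaled to the 11779 promoters with a peak in every library, with scale factors from 0.572 (Nanog day 1) to 2.15 (NanogN70 day 3), and all values given below as scaled tags are on that scale.

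The fibroblast list (8 genes, among them Col1a1, Col3a1 and Dcn) had a promoter peak at 8 of 8 genes in MEFs, and the ESC list (10 genes, among them Esrrb, Zfp42 and Dppa5a) at 10 of 10 genes in every ESC library. Their summed promoter signal was 216 scaled tags for fibroblast genes in MEFs against 51.2 to 68.1 in ESCs, and 362 to 394 for ESC genes in ESCs against 41.9 in MEFs. The NanogN70 day 3 library stood apart from the other 19. All 10 of 10 T lymphocyte markers (such as Cd3e and Cd3g) had a promoter peak there, with a summed signal of 339 scaled tags, against 1 to 6 markers and 20.96 to 78.1 in the others. General leukocyte markers (such as Ptprc and Ikzf1) had a peak at 10 of 10 genes with a sum of 266, against 1 to 6 genes and 18.6 to 121. The B lymphocyte list gave 34.9 (13.96 to 88.1 in the others, with Cd79a and Ms4a1 at 0), the macrophage list 25.1 (0.0 to 57.4, with Cd68, Adgre1, C1qa, Tyrobp, Fcgr1 and Lyz2 at 0) and the fibroblast list 45.6 (34.5 to 216, with Col3a1, Prrx1 and Lum at 0). Whether the library labelled NanogN70 day 3 held other cells or was a sample other than its label says was not tested, and its values below carry that limit. The calls and highest values that change without it are given below.

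Promoter sequence was searched for the core of the ISRE, which is GAAA and GAAA separated by any 2 bases, and for the GAS element, TTCNNNGAA, where N is any base, on both strands. RefSeq promoter windows (build GRCm38.p6, which shares its coordinates with the mm10 assembly of the peaks) were matched for 27 of the 35 members by symbol, from 250 bases before to 50 bases after the start. An ISRE core was present in 13 of these 27 (48.1%), against 665 of 16522 genes (4.02%), and a GAS element in 6 of 27 (22.2%) against 9.02%. The 13 genes were Ddx58, Ifih1, Stat2, Isg15, Ifit1, Ifit3, Rsad2, Bst2, Trim30a, Gbp2, Gbp3, Cxcl10 and B2m, and the GAS element occurred in Irf1, Ifit2, Isg20, Bst2, Ifi35 and Psmb8. Bst2 alone had both (0.714% of genes), and there they overlapped. A match describes the letters and not a bound site. The promoters below are shown because their ISRE cores, in capitals, were covered by a peak in very different sets of libraries. Each runs 5′ to 3′ along the gene over the 250 bases before the RefSeq start, without exon sequence, and for Ifit1, whose upstream bases overlap an exon, only the 30 bases around its cores are given. Stat2 is at chr10:128270248-128270497 (plus strand), Rsad2 at chr12:26456453-26456702 (minus), Cxcl10 at chr5:92348890-92349139 (minus), Isg15 at chr4:156200819-156201068 (minus), Ifit3 at chr19:34583279-34583528 (plus) and the Ifit1 site at chr19:34640785-34640814 (plus).
Stat2: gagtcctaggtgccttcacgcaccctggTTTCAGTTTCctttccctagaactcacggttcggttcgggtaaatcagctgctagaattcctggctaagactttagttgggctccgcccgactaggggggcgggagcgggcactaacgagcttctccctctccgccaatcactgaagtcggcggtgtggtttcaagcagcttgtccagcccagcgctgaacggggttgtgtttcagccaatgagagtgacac
Rsad2: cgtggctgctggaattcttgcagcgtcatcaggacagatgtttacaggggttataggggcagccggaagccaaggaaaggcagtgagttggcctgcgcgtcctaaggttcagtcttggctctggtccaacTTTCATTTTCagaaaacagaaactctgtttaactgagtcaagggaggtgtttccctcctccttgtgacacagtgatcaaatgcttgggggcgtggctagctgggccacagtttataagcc
Cxcl10: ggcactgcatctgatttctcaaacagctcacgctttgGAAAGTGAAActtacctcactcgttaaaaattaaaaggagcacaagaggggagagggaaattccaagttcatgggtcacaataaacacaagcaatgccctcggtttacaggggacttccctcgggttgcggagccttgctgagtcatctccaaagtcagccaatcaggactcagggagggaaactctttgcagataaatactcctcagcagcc
Isg15: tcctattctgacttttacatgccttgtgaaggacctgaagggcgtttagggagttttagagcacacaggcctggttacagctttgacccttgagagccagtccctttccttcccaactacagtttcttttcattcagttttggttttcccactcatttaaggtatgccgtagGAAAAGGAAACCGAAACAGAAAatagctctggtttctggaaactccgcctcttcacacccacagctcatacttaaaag
Ifit3: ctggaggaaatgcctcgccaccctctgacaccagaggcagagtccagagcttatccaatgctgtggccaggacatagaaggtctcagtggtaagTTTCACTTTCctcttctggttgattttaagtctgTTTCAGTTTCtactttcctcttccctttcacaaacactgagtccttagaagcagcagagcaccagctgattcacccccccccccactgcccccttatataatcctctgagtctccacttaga
Ifit1: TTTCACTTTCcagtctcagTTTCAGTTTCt

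In Isg15, 3 overlapping cores lie 78 to 57 bases before the start. Ifit1 and Ifit3 have 2 separate cores each, and the others shown have 1. The Stat2 core was under a peak in all 20 libraries, that of Rsad2 in 7, that of Cxcl10 in 3 and those of Isg15 in 1, while neither core of Ifit3 was covered in any library.

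To ask whether infection opened these genes, the members with a promoter peak were counted in each library beside all genes. MEFs had a promoter peak at 32 of 35 members (91.4%), against 70.3% of all genes. On day 0 the counts were 21 members with Nanog and 25 with NanogN70, against 61.1% and 65.5% of all genes. Both day 0 libraries were thus below MEFs, and the members' share was close to that of all genes. On day 1 there were 26 members with Nanog and 24 with NanogN70. In the Nanog path the count was then 28, 32, 31, 31, 26 and 23 on days 3, 5, 7, 8, 10 and 12. In the NanogN70 path it was 34, 28, 27, 27, 20 and 24 on the same days. The ESC libraries had 27, 29 and 27 members. The share of all genes was 61.9% to 68.4% from day 1 on and 71.1% to 72.8% in ESCs, and on NanogN70 day 10 the members (57.1%) lay below all genes (63.7%). By stage, the mean was 23.0 ± 2.83 members on day 0 (SD, n = 2), 25 ± 1.41 on day 1 (n = 2), 27.6 ± 4.03 on the later days (n = 12, or 27.0 ± 3.66 without NanogN70 day 3, n = 11) and 27.7 ± 1.15 in ESCs (n = 3).

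**Figure D1:**
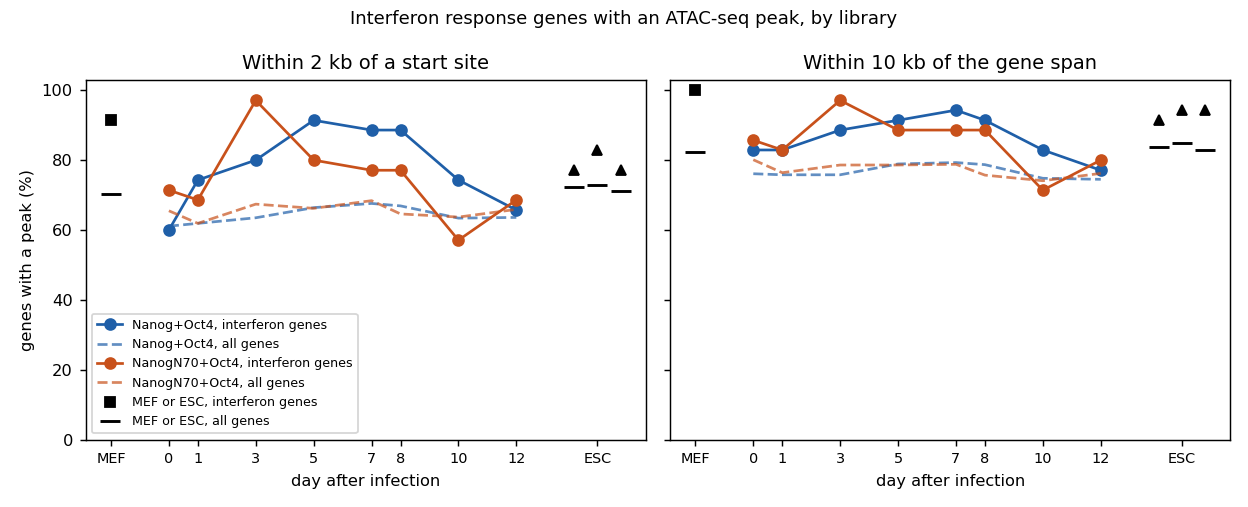
Share of genes with an ATAC-seq peak (y axis, %) within 2 kb of a start site (left) and within 10 kb of the gene span (right) by day after infection, for the 35 interferon response genes (filled symbols) and all 21912 genes (dashed lines and bars), with 1 symbol per library. The interferon genes are at 91.4% in MEFs and lower on day 0, with 21 and 25 genes, in the left panel, and NanogN70 day 3 is the highest library of the courses at 97.1%.

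Within 10 kb of the gene span, all 35 members had a peak in MEFs (82.4% of all genes), 29 and 30 on day 0 (76.1% and 80.1%), 25 to 34 on the other days (74.1% to 79.3%) and 32, 33 and 33 in ESCs (82.9% to 84.8%). In this window 22 members had a peak in all 20 libraries (66.7% of all genes), and 5 had a peak in MEFs and in neither day 0 library (Zbp1, Ifit3, Oasl2, Oas2 and Trim30a; 3.07%). The smallest scale factors were those of day 0 with Nanog and of both day 1 libraries (0.572 to 0.592). The part of depth in these counts was not tested, and the lack of a peak does not show that a promoter was closed. With equal numbers of peaks per library, taken by score, the difference of day 0 from MEFs was -20.0 percentage points in the members and -3.85 in all genes, and this does not equalise depth.

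Only Oasl1, Oas2 and Trim30a lacked a promoter peak in MEFs and could gain one. None of the 3 had one in either day 0 library. Of all 21912 genes, with or without a peak in MEFs, 1.61% had no promoter peak in MEFs and one in at least 1 day 0 library, and 0.278% in both. These shares are not over the genes that could gain a peak, and 3 members are too few to set beside them. No member lacked a promoter peak in all libraries, against 20.1% of all genes. The opposite pattern, a promoter peak in MEFs and in neither day 0 library, was found for 6 members (17.1%, against 5.14% of all genes). These were Zbp1, a sensor of nucleic acid in the Z conformation, Isg15, a ubiquitin-like protein, the antiviral effectors Ifit3, Oasl2 and Mx1, and Ifi44. Their MEF pileups were 21 tags for Zbp1, 17 for Isg15, 10 for Oasl2, 6 for Ifit3 and 4 each for Mx1 and Ifi44. Only the values of Zbp1 and Isg15 (15.4 and 12.5 scaled tags) lay above 8.73 scaled tags, the highest value, over the libraries, of the median pileup of the weakest peaks. In MEFs the Zbp1 summit lay at -912 from the start of the gene. The Isg15 summit lay at -2364, and 122 bases from the start of another gene, AW011738. The part of depth in the loss of the other 4 was not tested. The scaled promoter signal was below MEFs in both day 0 libraries at 21 of the 34 members tested (37.3% of all genes) and above MEFs at 7 (28.1% of all genes). The 7 higher members were Dhx58, Irf1, Irf3, Irf9, Stat2, Ifi35 and Psmb8.

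A limma fit was made over 16819 genes with a promoter peak in at least 2 libraries. It called none of the 34 members tested between day 0 and MEFs (background 0.143% higher and 0.398% lower). An unadjusted p under 0.05 was found for 3 members and for 1339 of the 16819 genes. Trim30a was the member left out. Changes are differences of log2(scaled tags + 5), which understates the change of low promoters. The median change was -0.35 log2 in the members and -0.02 in all genes. By role, the median was -0.67 in the antiviral effectors, of which 14 of 17 tested had a value below 0. It was 0.09 in the transcription factors, of which 4 of 5 had a value above 0. Of all 16819 genes, 8774 had a value below 0 and 6784 a value above 0. With 1 MEF library the spread was borrowed from the other stages, and without NanogN70 day 3 Ifit3 was called lower on day 0 (-0.91 log2, adjusted p = 9.32e-05), at a MEF pileup of 6 tags. In such bulk libraries, fewer cells with an open promoter and less signal per cell cannot be told apart.

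**Figure D2:**
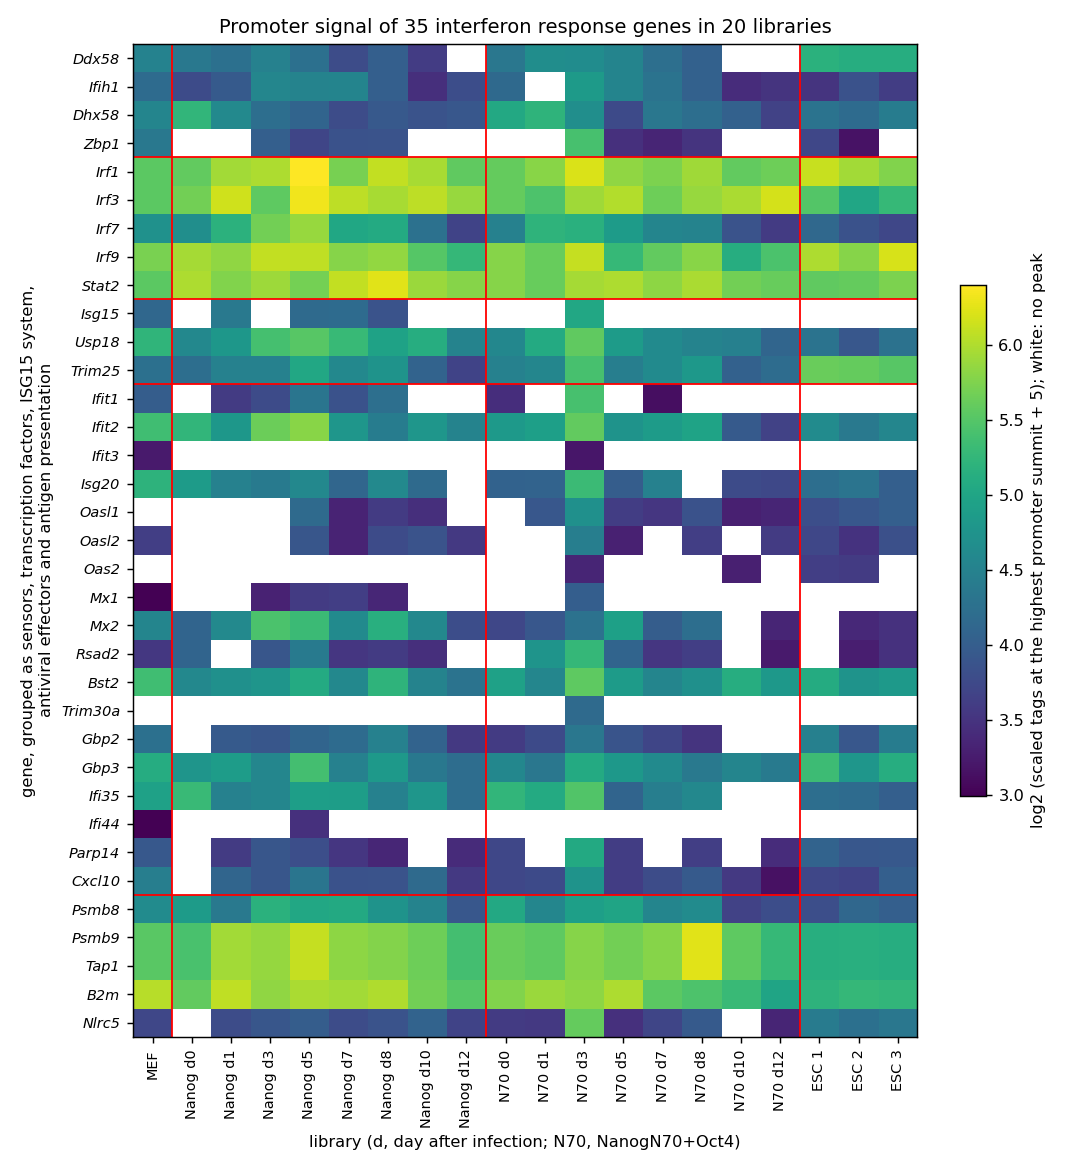
Promoter signal of the 35 genes (rows, grouped by role between red lines) in the 20 libraries (columns), as log2 of scaled tags at the highest promoter summit plus 5, with white for no peak. The transcription factors Irf1, Irf3, Irf9 and Stat2 and the genes Psmb9, Tap1 and B2m have signal in every library, while Isg15, Ifit1, Ifit3, Mx1 and Ifi44 have none in ESCs and NanogN70 day 3 fills 34 of 35 rows.

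Promoters of 15 members had a peak in all 20 libraries, which is 42.9% of the members against 53.8% of all genes. They included all 5 transcription factors. The products of Irf9 and Stat2 are part of the complex that binds the ISRE. Irf9 had 47.8 scaled tags in MEFs, 56.7 and 50.4 on day 0 (Nanog, then NanogN70), 52.4 and 44.0 on day 1, a median of 46.6 on the later days (29.7 to 63.8) and 58.1, 49.9 and 68.6 in ESCs. Stat2 had 41.9 in MEFs, 58.5 and 50.4 on day 0, 48.9 and 44.0 on day 1, a median of 54.6 later (44.0 to 71.3) and 42.7, 43.7 and 48.1 in ESCs. The MEF value of Stat2 was below every other library, and its day 0 values were above those of day 1 and ESCs, while the later days spanned most of the range for both genes. Neither passed the threshold in any contrast on this scale.

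Irf1, a transcription factor induced by interferon gamma, had 41.9 scaled tags in MEFs, 43.0 and 43.3 on day 0, 55.9 and 50.7 on day 1, a median of 53.9 later (42.5 to 79.8) and 64.5, 56.1 and 49.2 in ESCs, without a call on this scale. Scaling by the median of all summits called it higher on the later days than on days 0 and 1 (0.61 log2, against 0.16). Irf3, which is activated directly by the sensor pathway, had 41.9 in MEFs, 46.4 and 43.3 on day 0, 66.4 and 38.9 on day 1, a median of 57.4 later (42.3 to 75.8) and 40.0, 27.3 and 33.8 in ESCs. Every ESC value lay below the lowest value of the later days. Irf3 was lower in ESCs than on the later days by 0.69 log2 (SE 0.16, limma adjusted p = 0.00195). Its summit lies 41 bases from the start of Bcl2l12 and 354 bases before that of Irf3 in MEFs, so the signal cannot be assigned to either gene alone.

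Irf7, the factor that amplifies interferon production, was the transcription factor with the widest course. Its promoter had 21.3 scaled tags in MEFs and 12.7, 9.4 and 8.2 in ESCs. From day 0 to day 12 it had 20.6, 31.4, 46.0, 53.8, 27.6, 28.7, 14.2 and 7.8 with Nanog. With NanogN70 it had 17.6, 32.1, 30.7, 24.2, 18.3, 17.9, 9.6 and 7.0. Both courses had their highest value by day 5 and their lowest on day 12. The summit of ESC replicate 3 lay 2418 bases inside the gene, and at the 5′ end this library had no peak. The other values also mix sites. The strongest summit lay 1205 bases inside in MEFs and 1269 and 1229 in ESC replicates 1 and 2. It lay at 403 to 417 from the 5′ end on the Nanog days and at -39 to 1241 on the NanogN70 days. Irf7 was not called in ESCs against the later days (-0.77 log2, SE 0.38, adjusted p = 0.121), but was called lower there with the 5′ end alone (-1.23) and with quantile normalization (-1.53). Signal was higher with Nanog on 7 of 8 days, and the limma fit with day as a block gave -0.40 log2 for NanogN70 against Nanog (SE 0.11, adjusted p = 0.188), which does not pass over all genes.

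**Figure D3:**
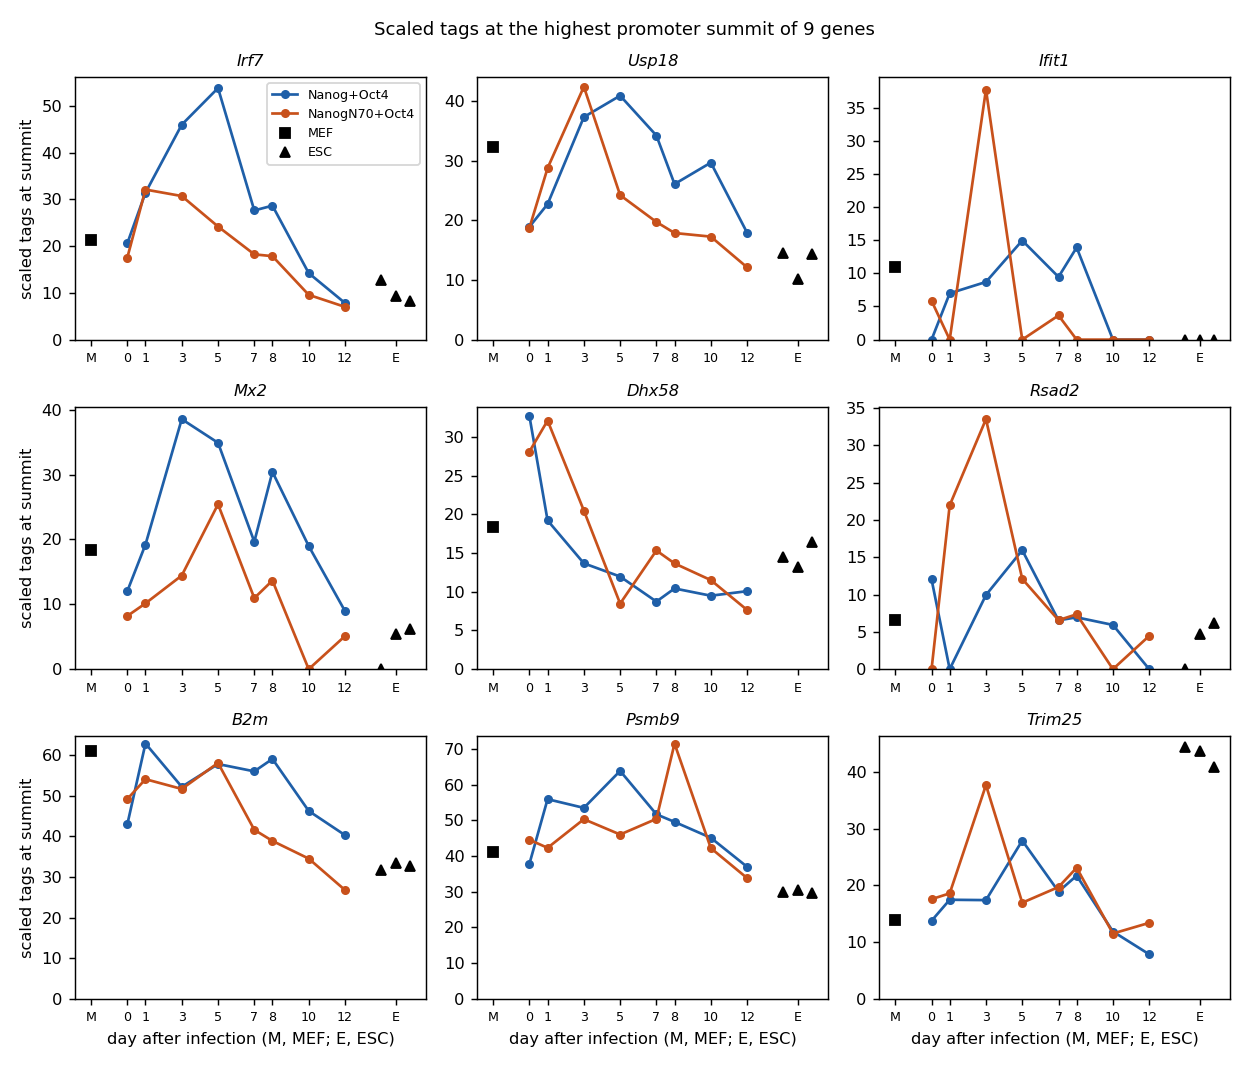
Scaled tags at the highest promoter summit (y axis, linear from 0) of 9 members against day after infection, with 1 point per library for Nanog+Oct4 (blue), NanogN70+Oct4 (orange), MEFs (M, squares) and the 3 ESC libraries (E, triangles). Irf7, Usp18 and Mx2 are higher with Nanog on most days, Dhx58 is highest on days 0 and 1 in each path, and Trim25 is above 40 scaled tags in ESCs.

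The sensors differed from one another. Dhx58 encodes LGP2, a regulator of the RNA sensors. It had 18.4 scaled tags in MEFs, 32.7 and 28.1 on day 0, 19.2 and 32.1 on day 1, a median of 10.97 later (7.65 to 20.5) and 14.5, 13.3 and 16.4 in ESCs. Only the later NanogN70 day 3 value (20.5) exceeded the lowest early value (19.2). Its signal was lower on the later days than on days 0 and 1 by 0.98 log2 (SE 0.16, limma adjusted p = 0.000712), 1 of 34 members called lower against 4.82% of all genes. The change was -0.95 in the Nanog path alone and -1.02 with NanogN70, with no call for the difference between paths (adjusted p = 1.00). The call was kept in 19 of 20 alternatives and was lost when libraries were scaled by the median of all their summits (-0.58, adjusted p = 0.0535). In MEFs, on days 0 and 1 and in 8 of 12 later libraries the summit lay 1627 to 1864 bases inside the gene from its 5′ end, 703 to 940 bases from the nearest annotated start, and in the other 4 later libraries 9177 to 9186 bases inside.

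Ddx58 encodes the RNA sensor RIG-I. Its signal was 17.6 scaled tags in MEFs, 15.5 and 15.2 on day 0, 14.0 and 20.3 on day 1, a median of 11.4 later (0.0 to 20.02) and 30.9, 29.6 and 29.7 in ESCs. All 3 ESC values were above every other library, and the gene was called higher in ESCs than on the later days (1.42 log2, SE 0.46, adjusted p = 0.0208). This signal was not at the 5′ end: the strongest ESC summit lay 19216 to 21294 bases inside the gene, near an internal start. At the 5′ end alone the ESC values were 10.09, 11.01 and 12.43, and the call was lost (0.47 log2, adjusted p = 0.428). It was kept in 13 of 19 alternatives and lost without any 1 of the ESC replicates. Ifih1, the RNA sensor MDA5, had 13.2 in MEFs, 8.60 and 12.9 on day 0, 10.5 and 0.0 on day 1, a median of 13.1 later (5.75 to 23.7) and 6.36, 9.35 and 7.17 in ESCs, with no call on this scale. Zbp1 had 15.4 in MEFs, no peak on days 0, 1, 10 and 12 of either path, 8.0 to 11.2 on days 3 to 8 with Nanog, 37.7 on day 3 with NanogN70, 5.1 to 6.3 on days 5 to 8 with NanogN70, and 8.2, 3.9 and no peak in ESCs. The strongest Zbp1 summit lay at -912 from the 5′ end in MEFs, at -925 to -908 in ESCs and at -925 to -14 in the courses.

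In the ISG15 system, Usp18 removes ISG15 from proteins and damps interferon signalling. It had 32.3 scaled tags in MEFs and 14.5, 10.1 and 14.3 in ESCs. From day 0 to day 12 it had 18.9, 22.7, 37.3, 40.9, 34.2, 26.1, 29.7 and 17.9 with Nanog. With NanogN70 it had 18.7, 28.7, 42.4, 24.2, 19.7, 17.9, 17.3 and 12.1. Only the NanogN70 day 12 value lay within the ESC range. These values mix sites. In ESC replicates 1 and 3 the strongest summit lay 14825 and 14810 bases inside the gene. In MEFs, ESC replicate 2 and the courses it lay at -272 to 60 from the 5′ end. Usp18 was lower in ESCs than on the later days by 0.75 log2 (SE 0.25, adjusted p = 0.0267). The call was lost without any 1 of the ESC replicates (highest adjusted p over all alternatives 0.140). At the 5′ end alone the call was kept (-0.81 log2, limma adjusted p = 0.0176).

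Trim25, a ubiquitin ligase that activates RIG-I and also conjugates ISG15, went the other way. It had 14.0 scaled tags in MEFs, 13.8 and 17.6 on day 0, 17.5 and 18.6 on day 1, a median of 18.2 later (7.84 to 37.7) and 44.5, 43.7 and 41.0 in ESCs. Every ESC value was above every other library. It was higher in ESCs than on the later days by 1.07 log2 (SE 0.25, adjusted p = 0.0026), in 18 of 19 alternatives. Against MEFs the difference was 1.34 log2 (adjusted p = 0.0684), and it passed without NanogN70 day 3 (adjusted p = 0.0261).

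Isg15 had a peak in its promoter window in only 6 libraries: 17 tags in MEFs, 9, 13, 18 and 11 on days 1, 5, 7 and 8 with Nanog, and 60 on day 3 with NanogN70. This peak did not lie at the ISRE cores shown for Isg15. Its summit lay at positions -2364 to -1866 from the start of the gene, in MEFs 122 bases from the start of AW011738, and the cores themselves were covered by a separate peak only on NanogN70 day 3 (39 tags).

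The antiviral effectors were the largest group. Ifit1, which binds viral RNA, had 11.02 scaled tags in MEFs and no peak in ESCs. With Nanog it had no peak on day 0, then 7.0, 8.7, 15.0, 9.5 and 13.9 on days 1, 3, 5, 7 and 8, and none on days 10 and 12. With NanogN70 it had 5.9 on day 0, 37.7 on day 3, 3.7 on day 7 and no peak on the other 5 days. It was not called in any contrast, and its summit in MEFs lay 39 bases from the start of Ifit1bl2 and 89 bases before that of Ifit1. Rsad2, which encodes viperin, had 6.6 in MEFs. With Nanog it had 12.0, 0.0, 9.9, 15.95, 6.5, 7.0, 5.9 and 0.0 from day 0 to day 12. With NanogN70 it had 0.0, 22.0, 33.5, 12.1, 6.6, 7.4, 0.0 and 4.5, and in ESCs it had 0.0, 4.7 and 6.1. In the courses the strongest summit was often inside the gene (median position 3633 bases from the 5′ end). At the 5′ end alone there was no Rsad2 peak on days 0 and 1 of either path.

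Mx2, an interferon-induced GTPase of the dynamin family, had 18.4 scaled tags in MEFs and 0.0, 5.5 and 6.1 in ESCs. From day 0 to day 12 it had 12.0, 19.2, 38.5, 34.9, 19.6, 30.4, 18.98 and 9.0 with Nanog. With NanogN70 it had 8.2, 10.1, 14.4, 25.4, 10.95, 13.7, 0.0 and 5.1. Nanog was higher on all 8 days. The limma fit gave -0.86 log2 for NanogN70 against Nanog (SE 0.21, adjusted p = 0.164), which does not pass over all genes. Mx2 was called lower in ESCs than on the later days (-1.27 log2, SE 0.48, adjusted p = 0.0463), a call kept in 7 of 19 alternatives and lost, among others, without NanogN70 day 3.

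Other effectors were weaker, and Oasl2, Ifit3 and Oas2 were close to the limit of detection in most libraries. Oasl2, of the OAS-like family, had no peak on days 0 and 1 and a median of 6.87 scaled tags later (0.0 to 16.8). It was the 1 member called higher on the later days than on days 0 and 1 (1.04 log2, SE 0.32, adjusted p = 0.0484; background 4.54%), and the call was kept in only 5 of 20 alternatives. Ifit3 had 4.4 in MEFs, 4.2 on NanogN70 day 3 and no peak elsewhere, and was called lower in ESCs than in MEFs (-0.91 log2, SE 0.26, adjusted p = 0.0318; 1 of 34 members against 3.33% of all genes), a call kept in 8 of 17 alternatives. Oas2, an oligoadenylate synthetase that activates RNase L, had 7.3, 7.0 and 0.0 in ESCs, 4.8 and 5.1 in 2 later NanogN70 libraries and no peak elsewhere. It was called higher in ESCs than on the later days (0.69 log2, SE 0.26, adjusted p = 0.0454), a call kept in 4 of 17 alternatives, with a change of -0.03 under quantile normalization. Oasl1 had no peak in MEFs or on day 0, and had one at the 5′ end on days 5, 7 and 8 of both paths. Its highest values were 12.96 on Nanog day 5 and 20.95 on NanogN70 day 3. The ESC libraries had 9.1, 10.1 and 11.3, with the strongest summit 8559 to 12828 bases inside the gene. It was the 1 member without a peak in MEFs and with one in all ESC libraries (4.18% of all genes). Cxcl10, a chemokine that attracts T cells, had 16.9 in MEFs, 0.0 and 8.2 on day 0, 12.2 and 8.5 on day 1, a median of 9.51 later (3.83 to 21.9) and 8.2, 7.8 and 11.3 in ESCs, with no call on this scale.

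Bst2, Ifit2, Gbp3 and Isg20 were stronger. Bst2 had 36.0 scaled tags in MEFs, 18.9 and 25.8 on day 0, 20.96 and 18.6 on day 1, a median of 22.7 later (14.6 to 41.9) and 29.1, 21.8 and 23.6 in ESCs. Ifit2, a relative of Ifit1, had 36.0 in MEFs, 32.7 and 23.4 on day 0, 22.7 and 25.4 on day 1, a median of 22.5 later (7.65 to 50.8) and 19.99, 15.6 and 18.4 in ESCs. Gbp3, like Gbp2 an interferon-induced GTPase, had 29.4 in MEFs, 22.4 and 18.7 on day 0, 24.5 and 15.2 on day 1, a median of 18.4 later (13.4 to 36.9) and 35.4, 22.6 and 29.7 in ESCs. Isg20, an RNA exonuclease, had 31.6 in MEFs and 11.3 to 14.8 in ESCs, with no peak on Nanog day 12 and NanogN70 day 8. The Isg20 values come from different sites, since the strongest summit lay 1236 bases after the 5′ end in MEFs and before it in ESCs, at -1069 to -989. Every day 0 and day 1 value of Bst2, Ifit2 and Gbp3 lay below MEFs, as did every ESC value of Bst2 and Ifit2. None of the 4 was called, but Gbp3 was called higher in ESCs than on the later days with a common detection limit and library weights (0.51 log2, against 0.44 without). Ifi35 had 25.7 in MEFs, 34.4 and 32.8 on day 0, no peak on NanogN70 days 10 and 12 and 11.3 to 13.6 in ESCs, also without a call. Gbp2 had 14.0 in MEFs, 0.0 and 7.03 on day 0, 10.5 and 8.45 on day 1, a median of 9.81 later (0.0 to 17.4) and 17.3, 10.1 and 16.4 in ESCs, without a call. The Gbp2 values also come from different sites. The strongest summit lay at -30 from the 5′ end in MEFs, at 740 to 762 in ESCs and at -756 to 849 in the courses. Mx1, a GTPase that blocks virus replication, had 2.9 in MEFs, 5.0 to 7.3 on days 3 to 8 with Nanog, 11.2 on NanogN70 day 3 and no peak elsewhere. Ifi44 had 2.9 in MEFs, 6.0 on Nanog day 5 and no peak elsewhere.

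The antigen presentation genes had a promoter peak in every library, except Nlrc5, the activator of MHC class I genes, which had no peak on Nanog day 0 and NanogN70 day 10. Nlrc5 had 8.08 scaled tags in MEFs, 43.3 on NanogN70 day 3, at most 11.9 in the other course libraries, with summits near the 5′ end, and 16.4, 14.03 and 15.4 in ESCs, where the strongest summit lay 87288 to 87341 bases inside the gene. With a common detection limit and library weights, Nlrc5 was called higher in ESCs than on the later days (0.45 log2). Psmb9, an immunoproteasome subunit, and Tap1, a peptide transporter, share 1 peak between their divergent starts in all 20 libraries and are therefore 1 measurement. It had 41.2 scaled tags in MEFs, 37.8 and 44.5 on day 0, 55.9 and 42.3 on day 1, a median of 49.9 later (33.8 to 71.5) and 29.98, 30.4 and 29.7 in ESCs. Each ESC value was below all other libraries. Psmb8, another immunoproteasome subunit, had 19.8 in MEFs, 24.1 and 28.1 on day 0, 15.7 and 18.6 on day 1, a median of 20.8 later (7.67 to 31.1) and 9.08, 12.5 and 11.3 in ESCs, without a call on this scale. The shared Psmb9 and Tap1 peak was lower in ESCs than on the later days by 0.62 log2 (SE 0.16, adjusted p = 0.00559), in 19 of 19 alternatives.

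B2m, the light chain of MHC class I, had 61.0 scaled tags in MEFs and 31.8, 33.5 and 32.8 in ESCs. With Nanog it had 43.0, 62.9, 52.2, 57.8, 56.0, 59.1, 46.3 and 40.3 from day 0 to day 12. With NanogN70 it had 49.2, 54.1, 51.7, 58.1, 41.6, 38.9, 34.5 and 26.8. The last NanogN70 value was below the ESC range, and the last Nanog value above it. The change between ESCs and the later days was -0.43 log2 (SE 0.18, adjusted p = 0.0613).

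Between day 1 and day 0 no member was called by limma (background 0.107% higher and 0.642% lower). An unadjusted p under 0.05 was found there for 1 member (Cxcl10, 0.91 log2, adjusted p = 0.619) and for 1298 of the 16819 genes. Between ESCs and the later days, 3 members were called higher (Ddx58, Trim25 and Oas2; background 25.2%) and 5 lower (Mx2, Usp18, Irf3, and Psmb9 and Tap1 through 1 shared peak; background 12.3%). Scaling by the median of all summits called 0 higher, and quantile normalization called 10 lower, the 5 above and Ifih1 (-1.44 log2), Irf7 (-1.53), Psmb8 (-1.24), Cxcl10 (-0.95) and B2m (-0.47). Quantile normalization also called more of all genes lower than the 12.3% of the main fit, as counted in the last section. Between ESCs and MEFs, where the 1 MEF library borrows the spread of the other stages, none was higher (background 6.17%). One member, Ifit3, was lower (background 3.33%), while 5 members and 3996 genes had an unadjusted p under 0.05. The median change of the members was -0.49 log2 in that contrast and 0.06 in all genes. All 3 ESC libraries were below MEFs at 22 of 34 members (33.9% of all genes) and above at 7 (42.6%), and 5 members had a promoter peak in MEFs and in no ESC library (Isg15, Ifit1, Ifit3, Mx1 and Ifi44; 2.83% of all genes).

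To compare the paths, each day of NanogN70 was set against the same day of Nanog. No member was called, and no gene of the whole table was (background 0.0% in each direction), while 3 members (Mx2, Irf7 and B2m, all higher with Nanog) and 2743 genes had an unadjusted p under 0.05. The median difference was -0.13 log2 in the members and 0.00 in all genes. On days 5, 7 and 8, 31 or 32 members had a promoter peak with Nanog and 27 or 28 with NanogN70, while the share of all genes was 66.4% to 67.6% and 64.6% to 68.4%. Over these days, every Nanog value was above every NanogN70 value at 7 members (Zbp1, Irf7, Isg15, Usp18, Ifit1, Mx1 and Gbp2; 7.5% of all genes). The opposite held for none (7.42%). For Gbp2 this compares different sites, since its strongest summits lay at -17 to -7 from the 5′ end with Nanog and at 732 to 824 with NanogN70. For Irf7 they lay at 403 to 405 with Nanog and at -39 to 413 with NanogN70. Isg15 and Mx1 had a promoter peak on all 3 of these days with Nanog and on none with NanogN70 (0.37% of all genes), and no member had the opposite (0.233%). These days were singled out after the values had been seen, and each is a single library. Signal was higher with Nanog on at least 6 of 8 days at 11 members (18.3% of all genes) and with NanogN70 at 1 member, Trim25 (18.0%).

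The NanogN70 day 3 library, in which the T lymphocyte markers were open, had the highest scaled signal of all 20 libraries at 15 of 34 members (10.5% of all genes), and of the 16 course libraries at 19 (14.8%). These included Zbp1 (37.7 scaled tags there against at most 15.4 elsewhere), Ifit1 (37.7 against at most 15.0), Nlrc5 (43.3 against at most 16.4) and Parp14 (28.4 against at most 11.8). Not all of these compare the same site. The strongest summit of Zbp1 lay at -14 from the 5′ end on NanogN70 day 3 and at -912 in MEFs. That of Nlrc5 lay at -51 on NanogN70 day 3 and at 87341 in ESC replicate 1. That of Parp14 lay at 2312 on NanogN70 day 3, 2150 bases from the nearest start, and at -158 in ESC replicate 1. Parp14 encodes an ADP-ribosyltransferase. Trim30a had a promoter peak in the NanogN70 day 3 library alone (28 tags, 13.0 scaled tags), a pattern of 0.79% of all genes. Of the 15 genes with a promoter peak in every library, Usp18 (42.4 against at most 40.9 elsewhere) and Bst2 (41.9 against at most 36.0) were also highest there, while Irf9 (63.8), Stat2 (56.3), Psmb9 (50.3) and B2m (51.7) lay within the range of the others. Without this library the highest later value was 18.2 scaled tags for Ddx58, 18.6 for Ifih1, 15.3 for Dhx58, 63.4 for Irf9, 27.9 for Trim25, 9.97 for Oasl2, 14.96 for Cxcl10, 32.1 for Bst2, 24.9 for Ifi35 and 15.95 for Rsad2. The comparison of the paths without it also called no member, with a median of -0.18 log2.

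Peaks over the ISRE itself gave a narrower view of the promoters. Of the 13 members with an ISRE core, 9 had a peak over it in MEFs, against 33.1% of all 665 genes with a core. On day 0 there were 4 with Nanog and 6 with NanogN70 (23.2% and 25.3% of those genes), and none was gained from MEFs in both (0.451%). On days 1, 3, 5, 7, 8, 10 and 12 there were 5, 7, 7, 8, 9, 4 and 5 with Nanog. With NanogN70 there were 3, 11, 5, 6, 4, 3 and 3 on the same days. The share of the 665 genes was 24.4% to 32.6% with Nanog and 23.5% to 28.7% with NanogN70, apart from 41.4% on NanogN70 day 3. Each ESC library had 4 (29.5% to 30.1% of those genes), and they were Ifih1, Stat2, Bst2 and B2m in all 3. The cores of Ifit3 and Gbp3 were covered in none of the 20 libraries, as were 47.7% of the 665 genes. Bst2 encodes tetherin, which holds budding virus at the cell surface.

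**Figure D4:**
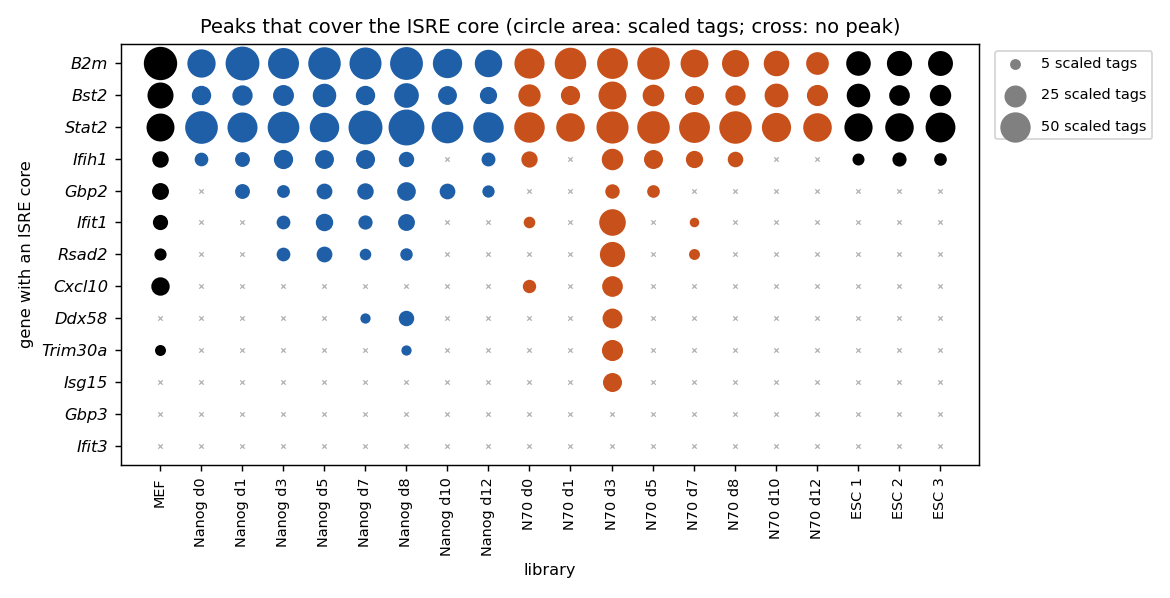
Peaks that cover an ISRE core, for the 13 members with a core (rows) in the 20 libraries (columns). Circle area stands for scaled tags at the peak and a cross for no peak. Stat2, Bst2 and B2m are covered in every library, Ifit1 and Rsad2 in MEFs and on Nanog days 3 to 8, and 11 of 13 rows are covered on NanogN70 day 3.

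The cores of Ifit1 were covered by 15 tags in MEFs, by 7, 15, 13 and 16 tags on days 3, 5, 7 and 8 with Nanog, and by 5, 81 and 5 tags on days 0, 3 and 7 with NanogN70. That of Rsad2 was covered by 9 tags in MEFs, by 7, 12, 8 and 8 on days 3, 5, 7 and 8 with Nanog, and by 72 and 7 on days 3 and 7 with NanogN70. That of Gbp2, an interferon-induced GTPase, was covered by 19 tags in MEFs, by 6, 6, 12, 18, 20, 10 and 6 from day 1 to day 12 with Nanog, and by 21 and 6 on days 3 and 5 with NanogN70. None of these 3 had a covering peak in ESCs. On all of days 5, 7 and 8, 7 members were covered with Nanog (25.7% of the 665 genes) and 4 with NanogN70 (21.5%). Trim30a has a RefSeq window at its 5′ end, whose core was covered on NanogN70 day 3 only (28 tags), and one at an internal start that is not among the starts used for the promoter windows. The core of the internal window, just after that start, was covered by 7 tags in MEFs, 5 on Nanog day 8 and 49 on NanogN70 day 3, and is counted among the covered members above.

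Around the members, 293 of 335858 merged peak regions lay within 10 kb of a gene span, 89 of them in a promoter window. Of the 293, 43 had a peak in MEFs and none on day 0 (14.7%, against 13.9% of regions near any gene, and 13 regions with equal numbers of top-scoring peaks per library), and 4 had no peak in MEFs and one in both day 0 libraries (1.37% against 2.39%). Of these 4, 1 lay in the promoter window of a member that had another promoter peak in MEFs, and 3 lay outside. The first, chr12:26450624-26451083 (mm10) inside Rsad2, had MACS scores of 83.8 and 76.4 on day 0 (a p-value on a logarithmic scale, at least 50), 53.5 and 101 on day 1, 117 on Nanog day 5 and no peak in any other library. The second, chr8:94517593-94517802 inside Nlrc5, had scores of 57.5 and 58.7 on day 0 and 55.8 on Nanog day 10 only. The third, chr8:71530659-71531137, downstream of Bst2, had 61.5 and 53.2 on day 0, was found in every library except MEFs and reached 320 to 462 in ESCs, 492 on Nanog day 5 and 459 on NanogN70 day 12. These are weak peaks at the start of the course. A region open early and in neither MEFs, ESCs nor later libraries occurred once near a member (0.341%, against 1.2% near any gene). A further 38 regions (13.0%, against 5.87% near any gene) had a peak on NanogN70 day 3 and in no other library.

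The rest of the pathway was taken from a list of ligands, receptors, signalling genes and brakes. Among 7 ligand genes, such as Ifnb1 and Ifng, 0 to 2 had a promoter peak in a library, and all 8 receptor and kinase genes (such as Ifnar1 and Jak2) had one in every library, as had all 6 brakes (such as Socs1 and Socs3). None of the 28 genes tested was called between day 0 and MEFs or between day 1 and day 0. Between the later days and days 0 and 1, 3 of 12 signalling genes were lower (background 4.82%): Mavs, the adaptor of the RNA sensors (-0.47 log2), Traf6 (-0.54) and Myd88, the adaptor of Toll-like receptors (-0.54). One brake, the phosphatase gene Ptpn2, was higher (0.34; background 4.54%). In ESCs against the later days, 3 of 8 receptor and kinase genes (Ifnar1, Ifnar2 and Jak2), 4 of 12 signalling genes (among them Tmem173, which encodes STING, at -1.44, and Rela at -1.25) and 3 of 6 brakes (Socs1, Socs3 and Ptpn2) were lower, and 1 brake, Ptpn6, was higher (0.60), beside 25.2% of all genes called higher and 12.3% called lower. Against the 1 MEF library, Socs1 (-0.90, adjusted p = 0.0333) and Socs3 (-1.10, adjusted p = 0.0219), which inhibit JAK kinases, were called lower in ESCs by limma (background 3.33%). These calls borrow the spread of the other stages, and no alternative was run for them.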

How the data were processed

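The 20 libraries are ATAC-seq libraries of mouse cells. According to the submitters' processing notes and the study's methods, reads were trimmed with Trim Galore 0.6.4, aligned to mm10 with Bowtie2 2.4.5 and filtered with SAMtools 1.16.1 for low quality, mitochondrial and repetitive reads, and the authors called peaks in each library separately with MACS 1.4.2, keeping duplicates. The peak lists deposited by the authors give a score, which is the p-value as -10 log10 and is at least 50, and the deposited summit lists give a pileup signal, which is a whole number of tags and is not scaled for depth. Read totals are unknown, so no counting interval was given.

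The promoter value of a gene was the highest summit among peaks within 2000 bases of any of its annotated starts (GENCODE M21), and 0 without a peak. Pileups were scaled by median ratios over the promoters open in all libraries, tested as log2(scaled pileup + 5) with limma 3.58.1 in R 4.3.3 over genes with a promoter peak in at least 2 libraries, and adjusted by the Benjamini-Hochberg method at 0.05. One fit held the 5 stages MEF, Day0, Day1, later days and ESC, and a fit over the 16 course libraries compared the paths with day as a block. Days 0 and 1 and the later days pool both paths, whose libraries may be 1 culture per path, and p-values measure only the spread between these libraries. The ESC libraries shared the same pileup at 8.38% to 10.9% of promoters and were kept as 3 samples. On simulated data the fit recovered most changed genes and also made false calls, fewer of them with a common detection limit, so that calls at low promoters (Oasl2, Ifit3 and Oas2) are less certain than their adjusted p-values. The genes described are those called in any contrast, at most 8 per direction, and the remaining members by role. The members and lists were chosen with earlier results of these data known. Some genes of the marker and pathway lists are not reported here by name.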

Additional observations from a re-analysis of the deposited data

How the results depend on the processing

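Direction and side of the threshold were kept in 147 of the recomputed single-gene values and lost significance in 59, and 1 reversed, Oas2 in ESCs against the later days under quantile normalization (-0.029 log2). Taking the same number of top-scoring peaks per library moved the members with a promoter peak from -25.7 to -20.0 percentage points on day 0 against MEFs, from 10.2 to 16.4 on the later days against days 0 and 1, and from -12.4 to -19.0 in ESCs against MEFs, and leaving out each early library gave -31.4 to -20.0 for day 0. The 5′ end alone gave -16.2 for ESCs. Within 10 kb, day 0 against MEFs was -15.7 points, and -30.0 with scores of at least 100 or -20.0 with 5 kb. The later days gave 3.1 points, and 9.29, 11.9 and 5.71 with scores of at least 100, top peaks and 5 kb, and ESCs gave -6.67 and -0.952 with top peaks. With scores of at least 100, 1 region instead of 4 was gained on day 0, and with top peaks 13 instead of 43 were lost.

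Scaling by the median of all summits shifted the median of all genes by -0.62 log2 on day 0 against MEFs, 0.39 on the later days, -0.24 in ESCs against MEFs and 0.11 between the paths. It called 6 members higher on the later days (Irf1, Irf3, Stat2, Oasl2, Psmb9 and Tap1; 4735 genes) and 0 lower, 0 lower in ESCs against MEFs and 0 higher in ESCs against the later days. The member called higher on the later days, Oasl2, became 0 members under a pseudocount of 10, absent peaks at the lowest pileup, quantile normalization, no filter, scores of at least 100, the 5′ end, a common detection limit with and without library weights (both chosen after seeing the data), and leaving out each ESC or early library (0 to 0). In ESCs against MEFs, 1 member, Trim25, was higher under a pseudocount of 10, the lowest pileup, quantile normalization, the limit with weights and without NanogN70 day 3. The member called lower there became 0 under a pseudocount of 10, the lowest pileup, 5 libraries, scores of at least 100, both common limits and without each ESC replicate (0 to 1), and under quantile normalization it was replaced by Usp18 (-1.47 log2, adjusted p = 0.0299). In ESCs against the later days, a pseudocount of 1 left 1 member higher, quantile normalization gave 10 lower (3117 genes), and leaving out 1 library gave 1, 2 or 3 higher and 3 or 4 lower. Without NanogN70 day 3, 1 member was lower on day 0 than in MEFs (128 genes), and with absent peaks at the lowest pileup 1 was lower with NanogN70 (Mx2, adjusted p = 0.0176). The causes were not tested. No pairing by replicate number could be fitted, since only the ESC libraries carry such numbers. The paths were compared with day as a block, and without that block no member was called either. Nanog day 0 and both day 1 libraries had the smallest scale factors. The limit of 8.73 scaled tags is the highest over the libraries, so a signal below it that is found in 1 library may be missed in another.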
